A study of Drosophila melanogaster with 3 samples.

Results

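The BTB transcription factors of Drosophila melanogaster were followed in ovaries whose germ line carried the sva53 mutation. The 10 genes mamo, ttk, br, lola, psq, chinmo, ken, bab1, bab2 and fru were sought by symbol among the array features whose platform annotation gives exactly 1 gene. Of these, 9 genes had at least 1 such feature, 50 features in all, out of 10805 named genes and 21939 features used. The annotation used here names no feature for ttk, which is not analysed here.

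The mutant ovaries had a germ line grown from pole cells, the germ cell precursors, of embryos made by germline clones homozygous for sva53[M1]. The control ovaries had a germ line from sva53/+ pole cells. Both kinds of pole cell were transplanted into host embryos laid by osk-homozygous females, so the somatic cells of every ovary were host cells, and the females were about 7 days old. Each of 3 mutant pools held 2 pairs of ovaries (Cy3), and each was hybridised with the same control RNA from 3 pairs of ovaries (Cy5), which gave 3 arrays of 2 colours. A single control RNA means that the spread of the control is not in any test below, and a dye effect of a feature does not cancel. The labels do not give the numerator of the deposited ratios. The scanner software writes red (Cy5) over green (Cy3), which is control over mutant, so every sign was reversed and values here are log2 ratios with the mutant on top. This reading is likely and not stated: with the other numerator every sign turns.

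A BTB domain is a protein-protein contact surface through which these factors form dimers and recruit partners, and a second domain binds DNA. In mamo, ttk, br, lola, chinmo, ken and fru that second domain is a set of zinc fingers. The proteins of psq, bab1 and bab2 bind DNA through a pipsqueak-type helix-turn-helix instead, so zinc-finger is not the right name for all of them. Several of these genes, lola, br and fru above all, make many transcripts that share the BTB part and differ in the last exons, which encode different zinc fingers. The RefSeq gene table listed 25 transcripts for lola, 16 for br, 15 for fru, 15 for psq, 7 for mamo, 6 for chinmo and 1 for ken.

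At the level of the gene, the mean of its features, none of the 9 genes changed between mutant and control ovaries by the test used (limma, Benjamini-Hochberg adjusted p under 0.05 over the 15415 gene means and unnamed features): 0 of 9 were called, against 13.4% of named genes and 13.9% of everything tested. At an unadjusted p under 0.05 the count was 3 of 9, near the 36.3% over everything tested. The gene means lay between -0.18 for br and 0.22 for psq. Their median size was 0.13, against 0.15 over all named genes. Single features of lola, br, fru and chinmo did pass, 15 of 50 in all, 11 higher and 4 lower, against 15.2% of all single features. All 15 lay in these genes, which hold 42 of the 50 features. With any 1 of the 3 arrays left out 0 of the 50 passed, as did 0 of all 21939 single features, and the 15 kept their sign.

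**Figure D1:**
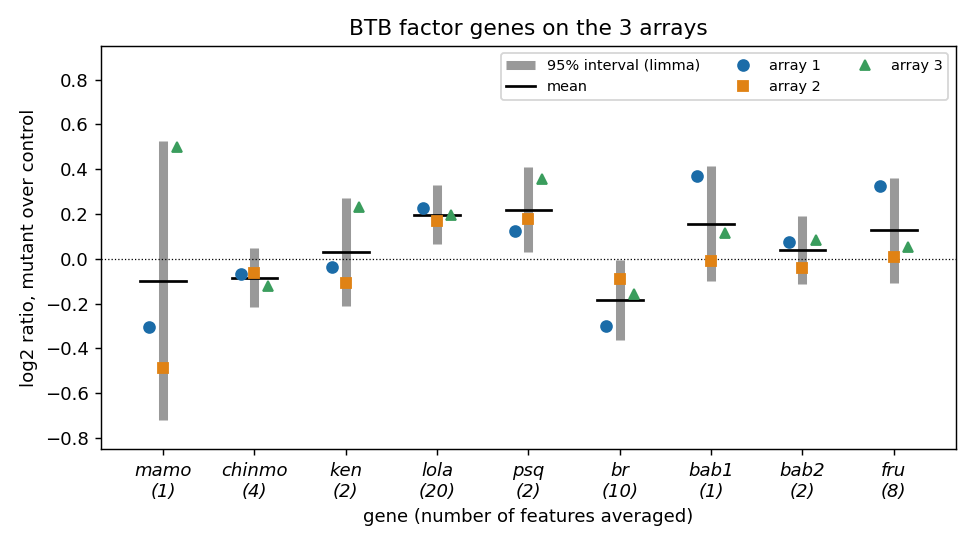
Log2 ratio of mutant over control (vertical axis) for the 9 genes, with 1 point per array, the mean as a black line and the 95% interval of limma as a grey bar; the number of features averaged stands under each name. The points of chinmo and lola lie close together, those of lola between 0.17 and 0.23, and those of mamo lie farthest apart, between -0.49 and 0.50.

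The gene mamo encodes a maternal BTB zinc-finger protein needed in germ cells for the making of functional gametes. The sva53 mutation is recalled as an allele of mamo, which the labels do not state, and whether it alters the transcript is not known here. The 1 feature of mamo read -0.30 on array 1, -0.49 on array 2 and 0.50 on array 3. Arrays 1 and 2 lay below 0 and array 3 above it, and the mean was -0.10 ± 0.53 (SD, n = 3). Its 95% interval, from -0.72 to 0.53, was the widest of the 9 genes, and the difference did not pass (limma adjusted p 0.78). Leaving out array 3 gave -0.396, and leaving out array 2 gave 0.098. The 3 named genes nearest to mamo over the 3 arrays, by Euclidean distance of the log2 ratios, were CG11626 (distance 0.16), Nos (0.23) and Cpr76Bd (0.25).

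The genes chinmo and ken belong to JAK/STAT signalling in the gonad. The protein of chinmo acts downstream of STAT in somatic stem cells of the testis, and that of ken represses a subset of STAT target genes. Gene means of chinmo were -0.07, -0.06 and -0.12 on arrays 1, 2 and 3, a narrow spread around -0.09 (95% interval -0.22 to 0.05, limma adjusted p 0.273). The 4 features behind that mean did not move alike. Feature 17408 read -0.44, -0.58 and -0.46, a fall of 1.41-fold that passed among single features (limma adjusted p 0.0333). It was the 1 of 4 that passed, against 7.33% of all features lower. In 55 of the 150 named genes with at least 4 features the share called in 1 direction was at least as high. The other 3 features lay between -0.14 and 0.19 in their means. Feature 17408 stood below them by 0.54 (95% interval in log2 from -0.74 to -0.35, limma adjusted p 0.0437). All 4 carry the same cDNA accession in the annotation, so the annotation does not show which transcript each one reads. The gene ken read -0.04, -0.11 and 0.23, with a sign that array 3 alone turned upward (mean 0.03, and -0.07 without array 3).

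The gene lola encodes a family of factors known for axon guidance and for germline stem cell maintenance in the testis. Its gene means were 0.23, 0.17 and 0.19, above 0 on every array. The mean of 0.20 ± 0.03 (SD, n = 3; 95% interval 0.07 to 0.33) did not pass (limma adjusted p 0.0683). It passed with the median of the 20 features (0.28, adjusted p 0.0431), an alternative chosen after seeing the data, and with array weights (0.18, adjusted p 0.0268). For gene means those weights were 0.44, 3.42 and 0.67 on arrays 1, 2 and 3, so the weighted fit rested mostly on array 2. The feature of smallest SD read -0.06, opposite in sign.

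That mean joined features on both sides of 0. Of the 20 features of lola, 13 had means above 0 and 7 had means below 0, over a range from -0.28 to 0.82. In the fit to single features 9 rose, 0 fell and 11 did not pass, against 7.89% of all features higher and 7.33% lower. With array weights 11 rose and 5 fell, where 5129 of all 21939 features rose and 4965 fell. With scaled arrays 1 fell, where 2068 of all features did, and with grid trends removed 1 fell, where 1685 did. Features of 1 gene share a transcript pool and are not independent.

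Feature 15052 had the highest values, 0.93, 0.80 and 0.72 on arrays 1, 2 and 3, a rise of 1.76-fold (limma adjusted p 0.0322). Feature 16510 read 0.69, 0.41 and 0.60, and feature 15184 read 0.53, 0.46 and 0.67. The 9 features that rose had means from 0.29 to 0.82, and each was above 0 on all 3 arrays. At the other end, feature 19771 read -0.27, -0.36 and -0.20, and feature 10958 read -0.26, -0.34 and -0.17. All 7 features with a mean below 0 were below 0 on every array as well, with adjusted p values from 0.0535 to 0.40.

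**Figure D2:**
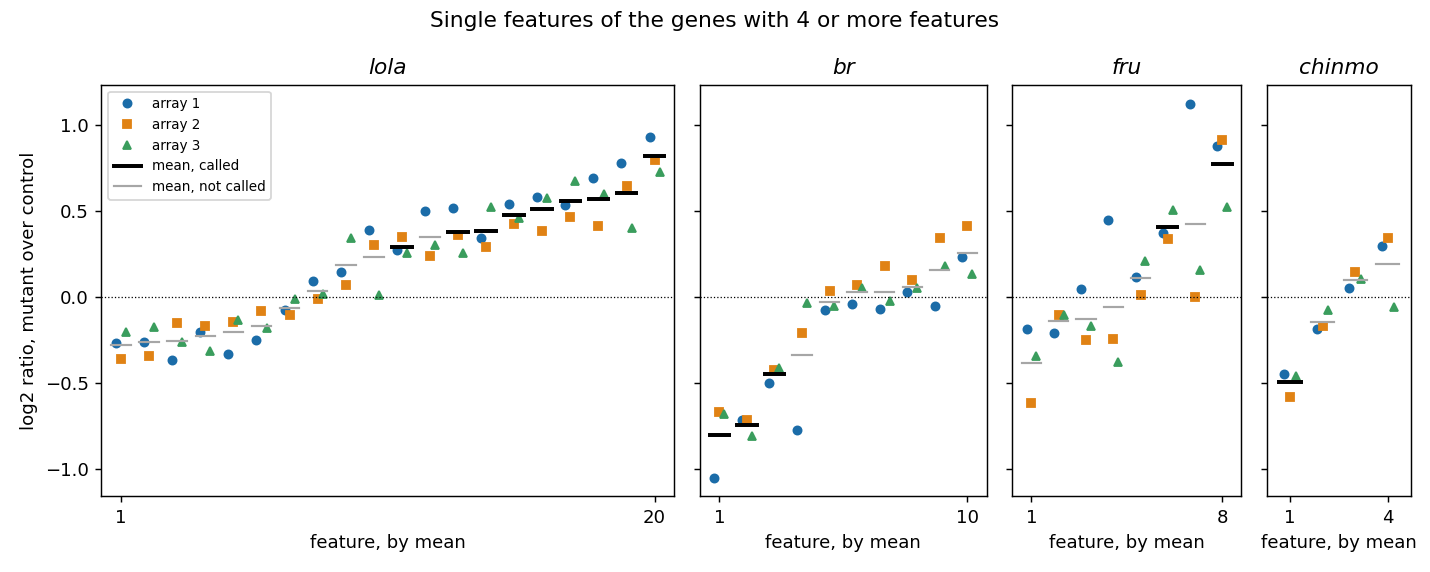
Log2 ratio of mutant over control (vertical axis) for each feature of lola, br, fru and chinmo, ordered by mean from left to right, with 1 point per array; a black line is a mean that passed the test and a grey line one that did not. The features of lola run from -0.28 to 0.82 and the 3 arrays follow each other along that range. The 3 features of br that passed are its lowest by mean.

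Whether features of 1 gene differ was tested directly, as each feature minus the mean of the other features of its gene on the same array (limma, adjusted over 7241 such differences). Among the 9 genes 8 of 45 differences passed, against 5.88% of all 7241. These shares are not like for like. Most of the 45 came from genes with at least 4 features, 20 of them from lola. Of the 5531 genes with at least 2 features only 150 had that many. Differences within a gene also share features and are not independent. Leaving out any 1 array left 0 of the 45 and 0 to 18 of the 7241. Scaled arrays gave 15 of the 45 and 736 of the 7241, grid trends removed 14 and 548, and array weights 33 and 3130. Of the 8, 4 were in lola. Feature 15052 lay 0.65 above the other features of lola (adjusted p 0.0383). Feature 19771 lay 0.50 below them (adjusted p 0.0417), feature 10958 lay 0.48 below (0.0437) and feature 15501 lay 0.45 below (0.0444). Each of lola, br, fru and chinmo, the genes with at least 4 features, had at least 1 feature that differed, whereas 41 of the 150 named genes with at least 4 features did (27.3%), and more features give more chances. A feature's own dye bias, cross-hybridisation and a difference between transcripts cannot be told apart here.

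The profile over the 20 features of lola was alike on the 3 arrays, with Pearson correlations of 0.958 between arrays 1 and 2, 0.903 between arrays 1 and 3, and 0.880 between arrays 2 and 3. For the 10 features of br the values were 0.905, 0.804 and 0.951, and for the 8 of fru 0.60, 0.521 and 0.888. These describe the features only, since all arrays share the control RNA and the probes. The SD of the feature means was 0.35 for lola, 0.38 for br, 0.38 for fru and 0.31 for chinmo, against a median of 0.23 over the 150 genes. In that set 31 genes had an SD at least as large as that of lola, itself included, and 22 had one at least as large as that of fru. The spread was thus above the median in these genes without being the largest on the array. In 23 of the 150 genes, lola included, the share of features called in 1 direction was at least the 45% seen in lola.

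**Figure D3:**
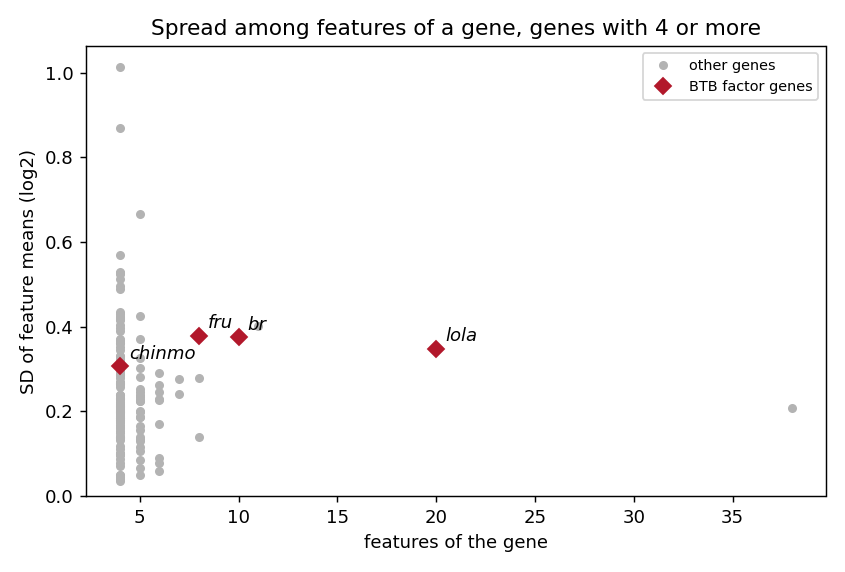
SD of the feature means on the log2 scale (vertical axis) against the number of features of a gene (horizontal axis) for the 150 named genes with at least 4 features; red diamonds mark lola, br, fru and chinmo, with SDs of 0.35, 0.38, 0.38 and 0.31. Genes with 4 features span the whole range of SDs, and few genes have as many features as br (10) or lola (20).

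The gene br, broad, is an early target of ecdysone, and in the ovary its protein helps to pattern the follicle cells that form the dorsal appendages of the eggshell. Its gene means were -0.30, -0.09 and -0.16, below 0 on every array, and the mean of -0.18 ± 0.11 (SD, n = 3; 95% interval -0.361 to -0.0043) did not pass (limma adjusted p 0.133). The fall rested on a few features. Of 10 features 3 fell, 0 rose and 7 did not pass, against 7.33% of all features lower. With array weights 3 fell and 2 rose, where 4965 of all 21939 features fell and 5129 rose. Feature 5371 read -1.05, -0.67 and -0.68, which is 1.74-fold lower (adjusted p 0.0349). Feature 13593 read -0.71, -0.72 and -0.81, with the smaller spread of the pair (adjusted p 0.0306). Feature 6646 read -0.50, -0.43 and -0.41 (adjusted p 0.0333). Feature 12520 read -0.77, -0.21 and -0.03, lowest on array 1, and did not pass. The other 6 features had means between -0.03 and 0.26. Features 5371 and 13593 lay 0.68 and 0.62 below the other features of br (adjusted p 0.0397 and 0.0437).

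Of 10 measured ecdysone response genes around br, 2 rose, 1 fell and 7 did not pass, with a median of 0.05. Over all named genes 6.36% rose and 7.04% fell, with a median of -0.0032. The receptor gene EcR (0.38) and the nuclear receptor gene Hr39 (0.38, not called with scaled arrays) rose. Among single features 2 of 4 rose for EcR and 3 of 4 for Hr39, against 7.89% of all features higher. The means of both genes were already called, so these counts are not separate support. Feature 3777 of Hr39 had a mean of -0.41. Kr-h1, a zinc-finger gene that answers juvenile hormone, fell by 0.30 (not called with grid trends removed). Its feature 17133 passed (-0.44, limma adjusted p 0.0343) and its feature 14137 did not (-0.15, adjusted p 0.134).

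Late follicle cell genes differed between the arrays, which bears on each value that rests on array 1. Averaged over 7 measured eggshell genes, array 1 read -2.79, array 2 read 0.03 and array 3 read -0.05, with 0 of 7 called. The gene means of br, fru, bab1 and lola were farthest from 0 on array 1, and the part of egg chamber stage in those values was not tested. Array 1 was also the widest over everything tested, with an SD of 0.47 against 0.33 on array 2 and 0.32 on array 3. Values far from 0 on array 1 are thus not particular to these genes. The 3 features of br that fell were low on all 3 arrays, which a call over 3 arrays favours, and their relation to egg chamber stage was not tested. In bulk ovaries fewer cells of a type and less RNA per cell cannot be told apart. Of the other marker lists, basement membrane and hemocyte genes had 5 of 10 lower, fat body genes 3 of 6 lower and male germ line genes 3 of 8 lower, against 7.04% of named genes. Germ line (9), muscle sheath (10) and nervous tissue (5) genes had 0 called. The calls of LanA, Col4a1 and Mst87F among these each missed the threshold under 1 alternative beside the left-out arrays. The 5 lower genes of the hemocyte list were LanA, LanB2, Col4a1, vkg and SPARC, all for basement membrane proteins, and its other 5, Hml, NimC1, eater, Pxn and srp, were not called, with means from -0.58 to 0.25. The lower fat body genes were Lsd-1, Pepck1 and Obp99b, while apolpp (-0.34), Fbp1 (-0.03) and Lsp2 (0.39) were not called. In the male germ line list topi, dj and Mst87F were lower, and the uncalled genes had means from -0.31 (comr) to 0.14 (nht). The files hold ratios only, so whether a marker is present in either channel could not be checked.

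The gene fru encodes the factors that set male courtship behaviour through sex-specific splicing, and it also makes transcripts common to both sexes. Its gene means were 0.32, 0.01 and 0.05, so array 1 set most of the mean (0.13 ± 0.17, SD, n = 3; limma adjusted p 0.346). Without array 1 the mean was 0.03. Of its 8 features 2 rose, 0 fell and 6 did not pass, against 7.89% of all features higher. With array weights 2 rose and 2 fell, where 5129 of all 21939 features rose and 4965 fell. With grid trends removed 2 rose and 1 fell, where 1774 of all features rose and 1685 fell. In 55 of the 150 genes with at least 4 features the share called in 1 direction was at least as high. Feature 988 read 0.87, 0.91 and 0.52, a rise of 1.71-fold (adjusted p 0.0353), and feature 9761 read 0.37, 0.34 and 0.51 (adjusted p 0.0379). Both were thus high on all arrays, unlike the gene mean. Feature 18322 read 1.12 on array 1, an exact 0 on array 2, which may stand for a ratio not measured, and 0.16 on array 3. Feature 20774 went the other way, at -0.18, -0.62 and -0.34. It did not pass against 0 (adjusted p 0.0829), and it lay 0.58 below the other features of fru (adjusted p 0.0437). Of 11 measured sex determination genes around fru 1 rose, dsx (0.37), and 0 fell, against 6.36% of named genes higher and 7.04% lower. Their median was 0.05. The call of dsx was lost with the median of its features (0.13, adjusted p 0.213) and with its feature of smallest SD (0.10, adjusted p 0.194). Of its 4 features 1 passed, 2068 with a mean of 1.21, and the others had means from 0.0010 to 0.15.

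The protein of psq binds GAGA sequences, takes part in recruiting Polycomb proteins and is needed in oogenesis. Its gene means were 0.13, 0.18 and 0.36, above 0 on every array, with a mean of 0.22 ± 0.12 (SD, n = 3; 95% interval 0.03 to 0.41), which did not pass (limma adjusted p 0.107). It passed with array weights (0.20, adjusted p 0.0422), a fit that rested mostly on array 2. The pair of features differed in level, 16448 at 0.16, 0.33 and 0.71 and 9500 at 0.09, 0.02 and 0.0044, but their difference did not pass (adjusted p 0.167). Of 9 measured Polycomb and GAGA-site partners 0 rose and 0 fell in limma, with 4 at an unadjusted p under 0.05, a level that 36.3% of everything tested reached. Their median was 0.22. The smallest p values were those of Pc, the chromodomain subunit of Polycomb repressive complexes (0.27, adjusted p 0.0517), and phol, a DNA-binding factor that recruits them (0.22, adjusted p 0.0686). The BTB gene lolal, whose short protein pairs with other BTB factors, read -0.37, -0.13 and -0.19 and did not pass.

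The neighbouring genes bab1 and bab2 are needed for terminal filaments, the somatic caps of the germline stem cell niche. The gene bab2 read 0.08, -0.04 and 0.08, with signs on both sides of 0. Its 95% interval ran from -0.11 to 0.19, which is from 0.925-fold to 1.14-fold. That interval is for the mean of 2 features and leaves out the spread of the control. The 2 features of bab2 had opposite signs in their means, -0.05 and 0.13, and their own 95% intervals reached up to 0.25 and 0.38. The 1 feature of bab1 read 0.37, -0.01 and 0.12 and was highest on array 1 (mean 0.16, and 0.05 without array 1, limma adjusted p 0.295). Of 8 measured niche and follicle patterning genes 0 were called in limma, with 2 at an unadjusted p under 0.05, no more than the share of 36.3% over everything tested. They were inv, an engrailed paralog (0.33), and Dad, an inhibitor in BMP signalling (-0.53).

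**Figure D4:**
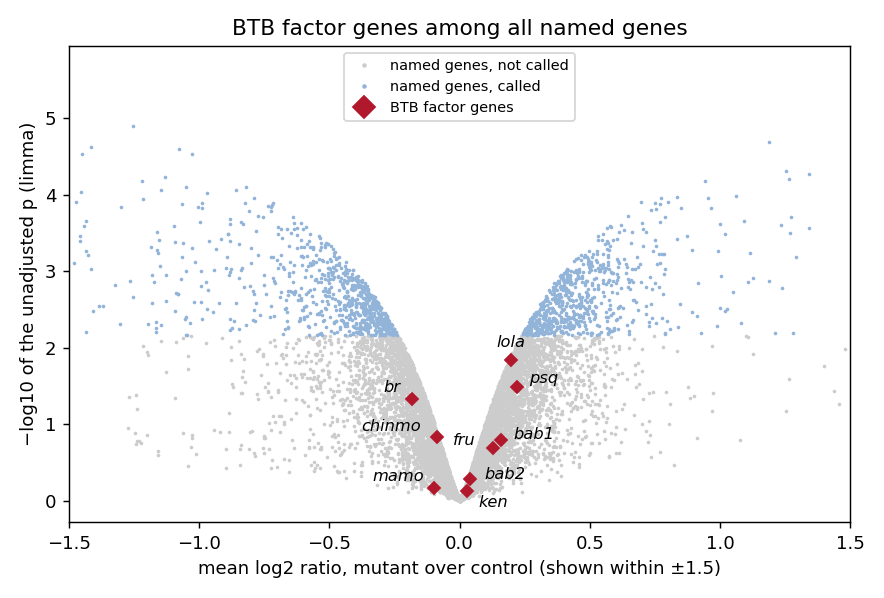
Negative log10 of the unadjusted limma p (vertical axis) against the mean log2 ratio of mutant over control (horizontal axis, shown within 1.5 of 0) for the named genes; blue points passed an adjusted p under 0.05 and red diamonds are the 9 BTB factor genes. All 9 diamonds lie below the blue points, with lola the nearest to them at a mean of 0.20.

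Other BTB genes of the fly, outside the 10, were measured for 15 of 18 listed. Of these 1 rose and 0 fell, against 6.36% of named genes higher and 7.04% lower, and their median was 0.10. The gene that rose was CG3726, at 0.49, 0.47 and 0.54 on the 3 arrays (mean 0.50 ± 0.04, SD, n = 3; limma adjusted p 0.0341). The SP-RING gene tna, which has no BTB domain and was listed with them in error, fell by 0.52 (adjusted p 0.0367). Of the others mod(mdg4) read 0.15 and Cp190 0.06, both for insulator proteins, and gcl, needed to form pole cells, read 0.13, and none of these passed. The gene mod(mdg4) also makes many transcripts with different last exons. Among its 38 single features 8 rose, 0 fell and 30 did not pass, against 7.89% of all features higher and 7.33% lower. Their means ran from -0.29 to 0.78. With any 1 array left out 0 of all 21939 single features passed.

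Of 13 measured germ cell genes listed around mamo, 1 rose, 2 fell and 10 did not pass, against 6.36% of named genes higher and 7.04% lower. Their median was 0.02. The cyclin gene CycB rose (0.48), and the histone chaperone gene Hira (-2.18) and bgcn (-1.44), a partner of bam, fell. Hira and bgcn were put on the list with their values known. Of 11 measured JAK/STAT genes around chinmo and ken 0 were called in limma, with 5 at an unadjusted p under 0.05, against 36.3% of everything tested. The smallest p was that of Ptp61F, a phosphatase that acts on the pathway (0.33, adjusted p 0.0524), and eya, a follicle cell factor, read -1.21, -0.51 and -0.60. Of 8 measured cell cycle and Notch genes listed around ttk, 2 rose and 2 fell, against 6.36% of named genes higher and 7.04% lower. CycB and CycE (0.45) rose, while peb (-0.81) and ct (-0.38), both for transcription factors of follicle cells, fell. With its feature of smallest SD ct read 0.11, and 0 of its 4 features passed among single features.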

How the data were processed

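The values the authors deposited are log10 ratios between the channels of an array, for 22575 features. They came from Agilent Feature Extraction 7.1, per the submitters' processing notes. How background and dyes were corrected is not given in the sources consulted. The log10 scale was read from the values. Features on the outer edge of the grid (636, none annotated) were left out, and the median of the rest was 0 on each array.

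Ratios were turned to log2 of mutant over control. Features with the same single symbol were averaged, and others stayed single, giving 15415 rows, of which 10805 are named genes. Of these rows each was tested against 0 with limma 3.58.1 in R 4.3.3 (lmFit, eBayes, 2-sided, Benjamini-Hochberg adjusted p under 0.05). The same fit was run on 21939 single features and on 7241 differences between a feature and the other features of its gene, and the procedure was tested on simulated data. Summaries used Python 3.11.15.

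The genes and lists were chosen with earlier results of these data known. Text names all 9 genes, the called members of each gene list other than the cell type markers (up to 3 a side, else the 2 of smallest p) and the 3 genes nearest to mamo; other genes and single features were picked after their values were seen. Alternatives were centred or scaled arrays, a robust prior, array weights, the feature of smallest SD, single features, exact zeros removed, grid trends removed, a stricter threshold, a turned sign and each array left out. The median of features, the repeats of the single-feature fit and the list without tna were added after seeing the data. Signal intensities were not used here, so the precision is limited by the number of arrays.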

Additional observations from a re-analysis of the deposited data

How the results depend on the processing

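No paired analysis was possible because the 3 mutant pools were all set against 1 control RNA. With any 1 array left out limma called 0 of the 15415 gene means and unnamed features (between 3277 and 4710 at an unadjusted p under 0.05), 0 of the 50 features of the BTB genes (16 to 24 unadjusted) and 0 to 18 feature differences. The 15 called features of the BTB genes kept their sign in each of these fits. An adjusted p under 0.01 also left 0 calls over all features and 0 among the differences. Array weights gave 5804 calls over all features, 3130 differences and 2 of the 9 genes, lola and psq. For gene means the weight was 3.42 on array 2, against 0.44 on array 1 and 0.67 on array 3. Array weights also gave 30 features of the BTB genes (18 higher, 12 lower), against 10094 of all 21939 single features. The feature of smallest SD gave 3418 calls, single features 3338 (15 of the BTB genes), the median of features 1 of the 9 genes, and scaled arrays 736 differences. Signs turned for mamo without array 1 (0.0061) and without array 2 (0.098), and for ken without array 3 (-0.071); mamo read -0.396 without array 3. With the feature of smallest SD br read 0.059, lola -0.064, chinmo 0.10, fru -0.14 and ct 0.11, and with array weights ken read -0.050 and bab2 -0.013. With the other numerator mamo would read 0.10, br 0.18, lola -0.20, psq -0.22, chinmo 0.085, ken -0.029, bab1 -0.16, bab2 -0.038 and fru -0.13.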

Other observations

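By the order of genes in RefSeq (assembly GCF_000001215.4), no other protein-coding gene lies between lola and psq, and none between bab1 and bab2. The means of lola (0.20) and psq (0.22) were both above 0 on all arrays without passing, and those of bab1 (0.16) and bab2 (0.04) did not pass either.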
